A study of Mus musculus with 2 samples.

Results

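The PEA3 genes *Etv1*, *Etv4* and *Etv5* were followed in Cajal-Retzius (CR) cells of the mouse hippocampus at postnatal day 14 (P14), of mice with Cre-mediated deletion of the transcriptional repressor capicua (*Cic*) and of their controls. They were found by their symbols, and all 3 were among the 32285 genes counted. Single-cell RNA-sequencing gave 2 libraries. Each was a pool of 4 mice, and the 2 pools were littermates. The control mice were *ΔNp73-Cre; Cic flox/+; tdT*, with 3 males and 1 female. The genotype of the knockout mice was *ΔNp73-Cre; Cic flox/flox; tdT*, with 2 males and 2 females. In both, Cre was driven from the *ΔNp73* locus and tdTomato marked the cells in which it had acted. The control cells therefore also carried Cre, the reporter and 1 floxed *Cic* allele, and they are not wild-type cells. Live tdTomato-positive cells were sorted before capture, so a cell in which Cre had not acted on the reporter was not collected. By the study's account this line loses capicua from most but not all hippocampal CR cells, so the knockout library may hold cells that kept it. A cell was a barcode with at least 2000 unique molecular identifiers (UMIs, each standing for 1 captured RNA molecule) and at least 5 UMIs of *Reln*, the extracellular matrix protein that defines CR cells. This left 1003 control and 390 knockout cells. With 1 library per genotype there was no replicate, so no significance test was made, and a difference between genotypes cannot be told apart from a difference between the libraries or pools of mice. The 95% intervals below are exact and cover counting error only.

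The PEA3 genes encode closely related transcription factors with an ETS DNA-binding domain and mostly activate their targets. They are switched on downstream of fibroblast growth factor (FGF) receptors and the RAS/ERK cascade. Capicua keeps them silent by binding short octamers in regulatory DNA, and active ERK takes this repression away. PEA3 proteins are in turn destroyed through the ubiquitin ligase COP1, so their mRNA is only part of what sets their activity. In the brain, *Etv5* is also known from glia and *Etv1* from subsets of neurons.

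On GRCm38, the mouse build of the gene models used here, *Etv4* lies at chr11:101769742-101785371 on the minus strand, *Etv5* at chr16:22381309-22439719 on the minus strand and *Etv1* at chr12:38779380-38870484 on the plus strand. No other annotated gene overlapped any of the 3, so their UMIs were not shared with a neighbour on either strand. RefSeq start-site windows (250 bases before a start, GRCm38.p6) were at hand for *Etv1* and *Etv5*, with 2 windows each, and not for *Etv4*. The octamers TGAATGAA, TGAATGGA, TCAATGAA and TCAATGGA, the form usually given for capicua, were searched on both strands. None stood in the 4 windows, while 3.19% of all 32851 RefSeq windows held at least 1. A near form with a final G (TGAATGAG, TGAATGGG, TCAATGAG and TCAATGGG) was searched only after the windows had been read. The window of the inner *Etv5* start held TGAATGGG 3 times, and the other 3 windows held none of the near forms. It is printed because the repeated octamer can be seen in it. It spans chr16:22438369-22438618 on the minus strand, 5′ to 3′, inside the *Etv5* gene and in an intron, with the octamers in capitals (the third, CCCATTCA, is TGAATGGG read on the other strand):
Etv5 inner start: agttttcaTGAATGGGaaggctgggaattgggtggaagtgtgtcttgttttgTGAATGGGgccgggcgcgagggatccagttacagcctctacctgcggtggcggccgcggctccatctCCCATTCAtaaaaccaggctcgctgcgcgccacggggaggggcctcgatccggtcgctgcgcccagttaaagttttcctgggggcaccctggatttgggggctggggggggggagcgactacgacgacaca
The 3 matches began 242, 198 and 131 bases before the start. At least 1 of the 4 near forms stood in 941 of the 32851 windows (2.86%). TGAATGGG itself, singled out because it was seen here, stood in 306 (0.932%), and 1 window held 3 copies, the one printed. A match is a description of these letters and no evidence that a factor binds there.

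The cells had a median of 6224 UMIs in the control (2012 to 31769) and 6664 in the knockout (2769 to 33453), and no cell barcode was in both libraries. Levels are given as CPM, the UMIs of a gene for every 1000000 UMIs outside mitochondrial and ribosomal protein genes, summed over the cells of a group. One UMI stands for 1 molecule whatever its length, so CPM of different genes compare numbers of captured 3′ ends. All 7 CR markers other than *Reln* were seen in at least 25% of the cells of each library, and 979 control and 384 knockout cells had at least 3 of them. Among the lists for other cell types, the astrocyte list summed to 105 CPM in control and 88.9 CPM in knockout cells, against 3001 and 3222 CPM for the CR list. Of its 7 genes, 1 was seen in 35.5% of control and 32.8% of knockout cells. No gene of the list was at 0 in the control and 3 were in the knockout, *Gja1* and *Aqp4* among them, and 2 control cells and 0 knockout cells had 3 of its markers. The mural list summed to 82.0 and 76.3 CPM, and its most frequent gene was seen in 31.8% of control and 30.3% of knockout cells. It has only 3 genes and 1 was at 0 in each library, so no cell could have 3 of its markers. The precursor list of the oligodendrocyte lineage summed to 60.7 and 78.5 CPM with *Olig2* at 0 in both, and no cell had 3 of its markers. Its most frequent gene was seen in 30.3% of control and 37.95% of knockout cells. *Cic* itself gave 58.9 CPM in control and 51.3 CPM in knockout cells (ratio 0.871, interval 0.714 to 1.06). These are 3′ tags, which need not lie in the deleted part of the gene, so they do not check the deletion.

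All 3 PEA3 genes were more abundant in the knockout library, *Etv4* by far the most. *Etv4* was all but absent from control cells, with 13 UMIs in 1003 cells, and reached 196 UMIs in 390 knockout cells. This was 1.97 CPM (1.05 to 3.37) against 70.9 CPM (61.3 to 81.5), a ratio of 36.0 (20.6 to 68.8). *Etv5* had a low level in control cells and the same level as *Etv4* in knockout cells. Control cells gave 99 UMIs of it or 15 CPM (12.2 to 18.3), and knockout cells 196 UMIs or 70.9 CPM (61.3 to 81.5), a ratio of 4.73 (3.69 to 6.08). *Etv1* remained rare in both, with 13 UMIs or 1.97 CPM (1.05 to 3.37) and 14 UMIs or 5.06 CPM (2.77 to 8.49). Its ratio of 2.57 had an interval from 1.12 to 5.94. In the control the order was therefore *Etv5* above *Etv4* and *Etv1*, which had equal counts. In the knockout *Etv4* and *Etv5* had equal counts, and both stood above *Etv1*. All 3 were past 2-fold, while 2.42% of the 13328 genes with at least 20 UMIs were at least 2-fold higher in the knockout. The members were chosen with earlier results of these data known, so this share is given for scale only. It also depends on counts, at 0.572% of genes with at least 100 UMIs and 10.0% with no filter. Ranked by ratio among the 13328 genes, *Etv4* was 7th, *Etv5* 41st and *Etv1* 149th. Ranked by the lower bound of the interval, they were 3rd, 19th and 535th.

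For *Etv4* and *Etv5*, the libraries differed both in how many cells showed the gene and in how many UMIs such a cell held. *Etv4* was seen in 11 control cells (1.097%) and 106 knockout cells (27.2%, interval 22.8 to 31.9). *Etv5* was seen in 78 control cells (7.78%) and 116 knockout cells (29.7%, interval 25.2 to 34.5). With every cell thinned to 2000 UMIs, the shares were 0.399% and 11.3% for *Etv4* and 3.09% and 12.3% for *Etv5*, so the contrast was also present at equal depth. *Etv1* was seen in 10 control cells (0.997%) and 11 knockout cells (2.82%), with 1.30 and 1.27 UMIs per such cell. Knockout cells with an *Etv4* UMI held 1.85 UMIs of it on average, against 1.18 in control cells. For *Etv5* the means were 1.69 and 1.27.

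The knockout cells were not uniform in either gene. For *Etv4*, 284 of the 390 cells had no UMI, 58 had 1, 20 had 2, 22 had 3 and 6 had 4 or more, up to 7. If all cells had shared 1 *Etv4* level and differed only in depth, 241.5 cells would have been without a UMI and 37.6 with at least 2, where 48 were seen. For *Etv5*, 274 cells had no UMI, 73 had 1, 25 had 2, 6 had 3 and 12 had 4 or more, up to 6. The same single level again gave 241.5 cells without a UMI. The variance of the UMIs per cell was 2.13 times the mean for *Etv4* and 1.97 times for *Etv5*, against 1.56 for *Cic* and 2.36 for the CR factor *Trp73* in the same cells. The spread between cells was thus wider than counting error, which the intervals of summed counts do not include. Where cells differ in level, this measure grows with the mean of the gene. *Trp73* had 1360 UMIs in these cells, against 196 each of *Etv4* and *Etv5* and 142 of *Cic*. Its value therefore does not show that it was as uneven between cells as *Etv4*. No single cell set the level. Without the cell with the most UMIs of the gene in each library, the ratio was 41.0 for *Etv4* and 4.79 for *Etv5*.

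**Figure D1:**
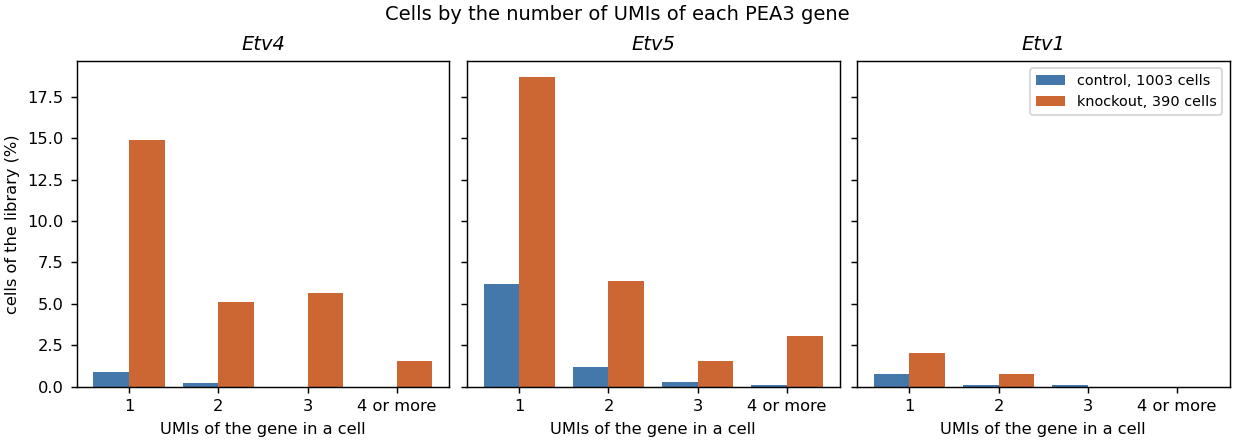
Share of the cells of each library (y axis, percent) with 1, 2, 3 or 4 and more UMIs of *Etv4*, *Etv5* and *Etv1* (x axis), control in blue and knockout in orange, with no error bars. Cells with at least 2 UMIs of *Etv4* numbered 2 of the control and 48 of the knockout library, and cells with at least 2 of *Etv5* 16 and 43.

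PEA3 RNA was also present outside the cells. In droplets of 20 to 100 UMIs, which hold free RNA rather than a cell, *Etv4* gave 1 UMI (0.459 CPM) in the control library, against 147 UMIs (48.4 CPM) in knockout droplets. *Etv5* gave 8 UMIs (3.67 CPM) and 155 UMIs (51.0 CPM) there. The droplets thus differed between the libraries in the same direction as the cells. The level of *Etv4* in knockout cells was 1.47 times that in knockout droplets (1.18 to 1.83), and for *Etv5* it was 1.39 times (1.12 to 1.73). *Reln* stood at 7873 CPM in the same cells and 880 CPM in the droplets, and *Trp73*, which is abundant in droplets, at 492 and 854 CPM. A droplet held a median of 44 UMIs against 6664 in a cell, and 0.178% of the 75813 knockout droplets had an *Etv4* UMI against 27.2% of the cells. Taking 10% of each cell's UMIs as free RNA left the ratio at 34.3 for *Etv4* and 4.50 for *Etv5*. The share of free RNA in the cells was not measured.

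In the knockout library, the shallowest cells had the lowest summed level of *Etv4* and the highest of *Etv5*. The cells of each library were divided by their UMIs into 4 depth groups of equal size. From the shallowest to the deepest group of the knockout cells, *Etv4* stood at 36.7, 58.2, 92.3 and 76.3 CPM. *Etv5* stood at 107.6, 87.3, 62.0 and 54.8 CPM. The interval of *Etv4* in the shallowest group (20.5 to 60.5) did not overlap that in the deepest (61.0 to 94.4), though the 2 nearly met. Those of *Etv5* did not overlap either (78.2 to 144.5 and 41.9 to 70.4). These intervals leave out the spread between cells, which was wider than counting error for both genes, so the slopes were not tested. The deepest group began above 8394 UMIs, and the 34 knockout cells called Pcp4 cells below had a median depth above this. They gave 57.9 CPM of *Etv4* and 50.9 CPM of *Etv5*, against 73.3 and 74.6 CPM in the other knockout cells. Both ratios had intervals that held 1. The part of these cells in the deepest group was not tested. Control cells showed no such slope for *Etv5*, with 13.4, 17.1, 16.7 and 13.4 CPM, and held 2 to 6 *Etv4* UMIs a group. In each depth group the knockout level of each gene was above the control level, with intervals apart.

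**Figure D2:**
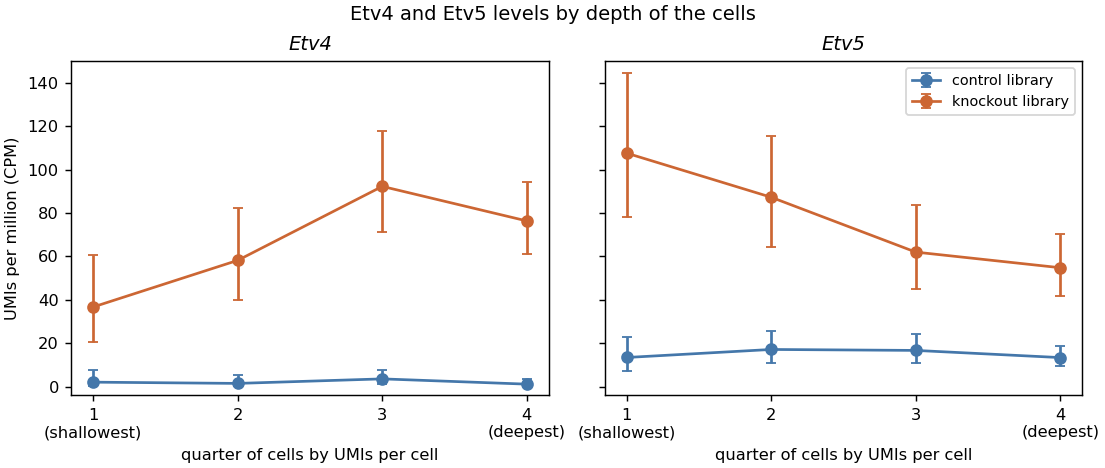
Level of *Etv4* (left) and *Etv5* (right) in CPM (y axis) in 4 depth groups of the cells by UMIs per cell (x axis), control in blue and knockout in orange. Points are summed CPM and bars their 95% counting intervals. In the knockout, *Etv4* is lowest (36.7 CPM) and *Etv5* highest (107.6 CPM) in the shallowest group.

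CR cells of these libraries divide by *Cck*, a neuropeptide, by *Grik1*, a kainate receptor subunit, and by *Chst8*, a sulfotransferase, or *Alkal2*, a ligand of the ALK receptor. A cell counted as positive with at least 1 UMI, so a cell could be in several classes. There were 324 control and 110 knockout cells positive for *Cck*, 194 and 70 for *Grik1*, and 232 and 91 for *Chst8* or *Alkal2*. In each class, *Etv4* and *Etv5* were higher in the knockout, with intervals that left out 1.

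*Etv4* in the knockout was lower in cells positive for *Chst8* or *Alkal2* than in the others. It stood at 43.5 CPM in the 91 positive cells and 81.2 CPM in the 299 negative cells, a ratio of 0.536 (0.357 to 0.782). The positive cells were deeper (median 7869 against 6361 UMIs), and the part of depth in this ratio was not tested. The ratio was 0.439 with at least 2 UMIs required for a positive cell, and 0.498 without the cell with the most *Etv4* UMIs in each class. The share of cells with an *Etv4* UMI differed less, at 22.0% and 28.8%, or 9.89% and 11.7% after thinning. In the control, *Etv4* gave 0 UMIs in the 232 cells positive for *Chst8* or *Alkal2*. A floor of 3 cells allows a share of cells with a UMI of up to 1.29%, and the exact interval reaches 1.58%. Cells that hold the RNA can show no UMI at this depth. The knockout level was at least 18.2-fold higher by the exact interval, or 23.7-fold against a floor of 3 UMIs over the group. That last value was 9.30 with at least 2 UMIs for a positive cell and 8.85 with classes from thinned cells. By the other 2 classes, the interval of the *Etv4* ratio held 1. It was 66.6 CPM in *Cck*-positive and 72.6 CPM in *Cck*-negative knockout cells (ratio 0.918, interval 0.657 to 1.27), and 82.0 and 68.2 CPM by *Grik1* (ratio 1.20, interval 0.840 to 1.69).

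*Etv5* differed in the control by *Chst8* or *Alkal2* and by *Grik1*, and not beyond counting error by *Cck*. In the knockout, the intervals of all 3 class ratios held 1. In control cells it stood at 23.9 CPM in cells positive for *Chst8* or *Alkal2* and 12.1 CPM in the others, a ratio of 1.98 (1.29 to 3.01). By *Grik1* it was 8.71 CPM in positive and 16.7 CPM in negative control cells, a ratio of 0.523 (0.260 to 0.961). In the knockout the same ratios were 1.01 (0.721 to 1.39) and 1.00 (0.682 to 1.43), with levels from 70.8 to 71.2 CPM in all 4 groups. The knockout-to-control ratio of *Etv5* accordingly ranged from 2.98 (1.94 to 4.63) in *Chst8* or *Alkal2* cells to 8.14 (4.16 to 17.1) in *Grik1* cells. The *Grik1* value rests on 12 control UMIs, and it was 13.1 (4.27 to 53.5) with classes from thinned cells and 15.1 (5.10 to 60.6) in cells positive for *Grik1* alone. Whether these ratios differ beyond the spread between animals could not be tested. By *Cck*, *Etv5* was 84.2 and 65.5 CPM in positive and negative knockout cells (ratio 1.29, interval 0.943 to 1.74) and 16.6 and 14.1 CPM in control cells (ratio 1.17, interval 0.762 to 1.79). Cells negative for all of these genes (387 control and 173 knockout) gave 1.69 and 82.4 CPM of *Etv4* and 12.3 and 61.1 CPM of *Etv5*. The difference between the libraries was thus also seen in cells without a UMI of any class gene. They are called cells of no class here, though they can hold RNA of these genes that was not captured. *Etv1* was too rare to divide, with at most 5 UMIs in any positive class.

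The sex of a cell was read from *Xist* and 4 Y-linked genes, which gave 702 male and 227 female control cells and 194 and 176 knockout cells. *Etv4* stood at 67.2 CPM in male and 77.5 CPM in female knockout cells (female over male 1.15, interval 0.860 to 1.55). All 13 control UMIs of *Etv4* were in male cells, 2.77 CPM, so the ratio to the control was 24.3 (13.5 to 47.2) in male cells. In the 227 female control cells there were none, and the knockout level was at least 29.6-fold higher by the exact interval, or 37.1-fold against the floor of 3 UMIs. *Etv5* stood at 65.1 CPM in male and 77.5 CPM in female knockout cells, and at 17.5 and 9.76 CPM in the control, where female over male was 0.559 (0.293 to 0.992). Its ratio to the control was 3.73 (2.74 to 5.08) in male and 7.95 (4.51 to 15.1) in female cells. The female control cells came from 1 mouse, so sex and animal cannot be told apart there. For *Etv1* the ratio was 1.31 (0.301 to 4.56) in male and 4.10 (0.780 to 40.4) in female cells, and both intervals held 1.

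In a few cells, 83 control and 34 knockout, nuclear genes of oxidative phosphorylation made up at least 1.8% of the UMIs that CPM counts. They are called Pcp4 cells here after the calmodulin-binding gene *Pcp4*, which the study found high in a cluster enriched for mitochondrial terms. *Pcp4* itself was not used to define them, and its level in them is not given here. Their median depth was 13502 UMIs in control and 14229.5 in knockout cells. In the knockout, they gave 57.9 CPM of *Etv4* and 50.9 CPM of *Etv5*. Without them the knockout-to-control ratios were 31.9 (18.2 to 61.1) and 4.96 (3.81 to 6.51), and for *Etv1* 2.22 (0.888 to 5.50). The *Etv1* interval therefore held 1 without these cells.

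*Etv4* and *Etv5* were often found in the same knockout cells. Both were seen in 60 of 390 cells (15.4%, interval 11.95 to 19.4), in 46 cells *Etv4* was seen without *Etv5*, and in 56 *Etv5* without *Etv4*. At least 1 of them was seen in 162 cells (41.5%, interval 36.6 to 46.6), against 87 control cells (8.67%). Of the 106 knockout cells with *Etv4*, 56.6% (46.6 to 66.2) also had *Etv5*, while of the 284 without *Etv4* 19.7% (15.3 to 24.8) had it. Deeper cells show more of any gene, so the number was set against the product of the shares of the genes within the 4 depth groups. That product gave 32.7 cells, and the 60 cells seen were 1.83 times as many. The excess was present at each depth, with 8, 9, 18 and 25 cells from the shallowest to the deepest group against 3.31, 5.09, 10.5 and 13.9. After thinning to 2000 UMIs, 8 cells had both against a product of 5.42.

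The excess was present in each class. It was 1.82 times the product in *Cck*, 1.81 in *Grik1*, 1.91 in *Chst8* or *Alkal2* cells and 1.796 in cells of no class. In male cells it was 2.05 and in female cells 1.55, and without the Pcp4 cells 1.92. Control cells gave too few to compare, with 2 cells holding both genes. *Etv1* was seen in 11 knockout cells, of which 4 had all 3 genes, 1 had *Etv4* alone beside it, 2 had *Etv5* alone beside it and 4 had neither. In the knockout, the CR list was higher in cells with an *Etv5* UMI (3535 CPM) than without (3079 CPM). By *Etv4* it was 3519 and 3087 CPM, and the intervals were apart for both genes. In control cells the CR list was at 2979 and 3003 CPM by *Etv5* and at 2923 and 3002 CPM by *Etv4*, with intervals that overlapped. Knockout cells with a UMI were deeper, with medians of 7034 against 6364 UMIs for *Etv5* and 7687 against 6216 for *Etv4*. The part of depth was not tested, and the intervals cover counting error only. The astrocyte list did not go with *Etv5* in the knockout, at 70.4 CPM in cells with and 97.4 CPM in cells without an *Etv5* UMI. In the control it was 149 CPM (120 to 184) and 101 CPM (92.8 to 109). Of the 7 astrocyte genes, 3 were at 0 in the 78 control cells with *Etv5*, *Gja1* and *Aqp4* among them. Only 1 gene was seen in at least 25% of these cells, and 1 cell had 3 of the markers. The most frequent gene was seen in 47.4% of control cells with and 34.5% of those without an *Etv5* UMI. The list for granule or pyramidal neurons was at 31.6 CPM (19.0 to 49.3) in control cells with and 16.0 CPM (12.96 to 19.5) in control cells without an *Etv5* UMI. The part of the astrocyte or neuron list in the control level of *Etv5* was not tested.

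**Figure D3:**
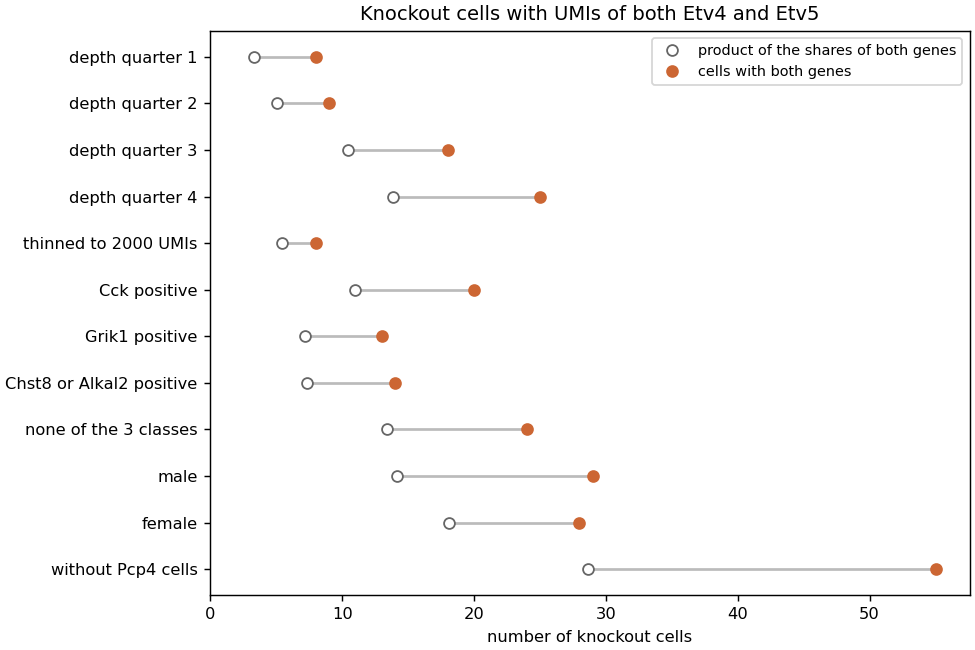
Number of knockout cells (x axis) with UMIs of both *Etv4* and *Etv5* (filled points) and the product of the shares of the 2 genes (open points), by depth group, after thinning, by class and by sex (y axis), with no error bars. The filled point lies to the right of the open one in each group shown, for example 25 cells against 13.9 in the deepest group.

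Several of the genes with the highest ratios beside *Etv4* were also high in the knockout library. Against the product of shares, *Etv4* was found 2.10 times as often with *Gm5820*, 2.10 times with *Fgf1*, an FGF that lacks a classical secretion signal, and 2.09 times with *Shc3*, a neuronal adaptor between receptors and RAS. With *9630014M24Rik* the figure was 2.00, and 74.5% of the cells with *Etv4* had this RNA against 20.8% of those without. *Etv5* gave 1.91 with *Shc3*, 1.85 with *9630014M24Rik*, 1.82 with *Fgf1* and 1.81 with *Gm5820*. By the study's account, *Fgf1*, *9630014M24Rik* and *Gm5820* lie close together in the genome, so they do not stand for separate places in it. The receptor *Fgfr1* came at 1.60 with either gene. Not all genes that were high in the knockout did so: *AC160336.1*, at 2.92-fold, gave 0.905 with *Etv4* and 1.11 with *Etv5*. Of genes within 2-fold between the libraries, *Trp73* gave 1.03 with *Etv4* and 1.01 with *Etv5*, *Cck* 0.99 and 1.19, *Cic* 0.69 and 0.94, and *Chst8* 0.56 and 0.93. *Trp73* was seen in 360 of the 390 knockout cells, so its figure had to lie near 1 and is no contrast to the others. The more cells show a gene, the lower the highest figure it can reach. Others within 2-fold lay higher with *Etv4*: *Ets1* gave 1.51 with *Etv4* and 1.09 with *Etv5*, *Tle2* 1.43 and 0.866, and *Spred1* 1.41 and 1.33. *Spred1* was itself higher in the knockout, though short of 2-fold (ratio 1.73, interval 1.40 to 2.14). *Ets1* and *Tle2* were not higher (ratios 0.768 and 0.804). Their figures with *Etv4* rest on 17 and 29 cells, and those with *Etv5* were nearer 1. These genes were picked after their values were seen, so whether an excess extends to genes not high in the knockout was not tested. The immediate early gene *Egr1* was lowest with either gene, at 0.417 and 0.529, and *Ier2* gave 0.499 and 1.06. These 73 comparisons are ratios of small numbers of cells and are given as a description.

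In the rest of the ETS family no measured gene differed by as much. Of 24 other ETS genes, 11 were measured and none was at least 2-fold higher or lower, where 2.42% and 1.87% of all genes were. At these shares, a list of this size would hold few if any such genes. The median log2 ratio of the 11 was -0.12, against 0.01 over all genes. *Elf2*, the most abundant of them, was at 70.4 CPM in control and 75.6 CPM in knockout cells. *Ets2* was at 37.7 and 31.1 CPM, and *Erf*, an ETS repressor that ERK exports from the nucleus, at 34.1 and 31.5 CPM. The most divergent point was *Spdef*, at 3.48 and 1.81 CPM (ratio 0.519, interval 0.154 to 1.40).

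The feedback inhibitors of ERK, many of them known PEA3 or capicua targets, differed among themselves. Of 14 listed genes 10 were measured, 2 were at least 2-fold higher and 1 at least 2-fold lower, where 2.42% and 1.87% of all genes were. The interval lay above 1 for 3 and below 1 for 1, and the median log2 ratio was 0.03. *Spry4*, a Sprouty inhibitor of receptor signalling, had 1 UMI in control and 24 in knockout cells (ratio 57.3, interval 9.34 to 2356). It lies at chr18:38586247-38601415, on the same stretch of the chromosome as *Fgf1* at chr18:38838673-38929472. Whether the differences of *Spry4* and *Fgf1* are separate was not tested. *Spred3* had 29 and 39 UMIs (ratio 3.21, interval 1.94 to 5.38). *Dusp5*, a nuclear phosphatase of ERK, was lower, with 65 and 12 UMIs (ratio 0.441, interval 0.217 to 0.823). *Spred1* was at 31.96 and 55.3 CPM (ratio 1.73, interval 1.40 to 2.14), short of 2-fold. The more abundant *Spred2* and *Spry2* were at 123 and 136 CPM and at 70.4 and 71.2 CPM. *Dusp6*, a common readout of ERK, had 6 and 3 UMIs and could not be measured.

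Of 19 genes for FGFs and their receptors 6 were measured and 3 were at least 2-fold higher (2.42% of all genes), with a median log2 ratio of 0.60. *Fgf1* had 19 UMIs in control and 122 in knockout cells (ratio 15.3, interval 9.41 to 26.3). *Fgfr1* had 44 and 82 UMIs (ratio 4.45, interval 3.05 to 6.57) and *Fgf20* 43 and 38 (ratio 2.11, interval 1.33 to 3.34). Without the Pcp4 cells, *Fgf20* was no longer past 2-fold. *Fgfr2*, the receptor with the highest level in these cells, was at 445 and 424 CPM (ratio 0.953, interval 0.890 to 1.02). *Fgf1* and *Fgfr1* overlap genes on the opposite strand, and the strand that was counted is not given in the sources used here.

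The machinery around the PEA3 genes stayed within 2-fold. None of the 7 capicua complex genes, 6 PEA3 turnover genes or 19 ERK cascade genes was past it in either direction. Over all genes, 2.42% were at least 2-fold higher and 1.87% lower, so lists of this size would hold few such genes. The median log2 ratios of these lists were -0.12, 0.19 and -0.01. *Atxn1*, a partner of capicua, was at 305 and 315 CPM (ratio 1.03, interval 0.952 to 1.12). *Cop1*, the ligase that marks PEA3 proteins, was at 96.8 and 112 CPM (ratio 1.15, interval 1.00 to 1.32). *Braf*, the most abundant gene of the cascade list, was at 349 and 315 CPM (ratio 0.901, interval 0.833 to 0.975). Of 16 immediate early genes 12 were measured and 1 was at least 2-fold lower (1.87% of all genes) and none higher (2.42%). It was *Egr1*, with 664 and 113 UMIs (ratio 0.406, interval 0.330 to 0.497). *Fos* was at 538 and 504 CPM and *Dusp1* at 258 and 306 CPM. Dissociation itself induces these genes, and its part in the *Egr1* difference was not tested.

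**Figure D4:**
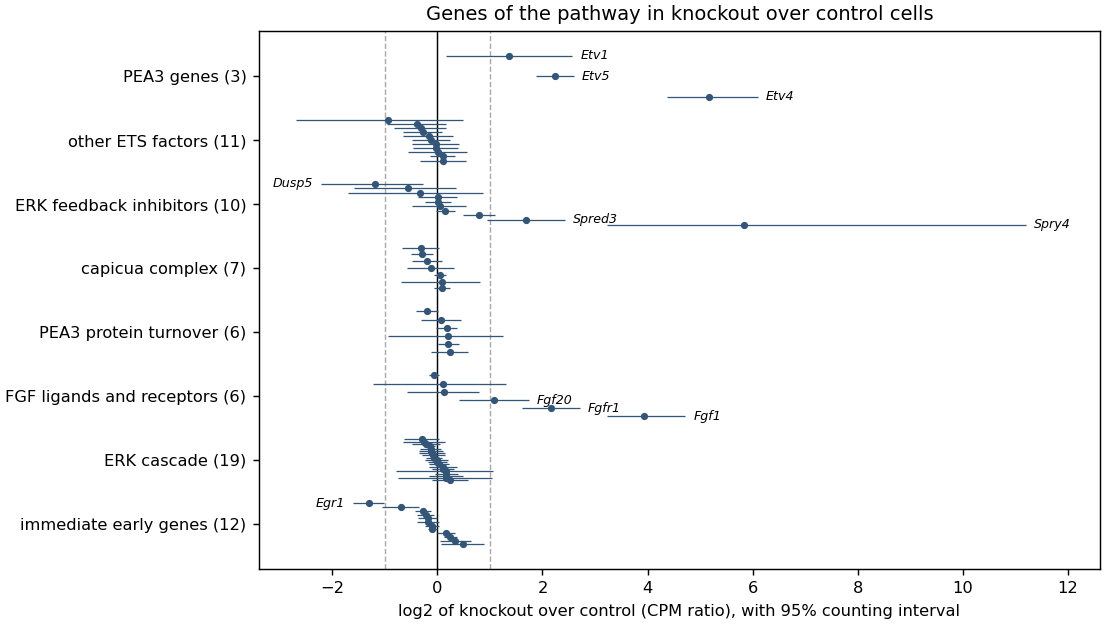
Log2 ratio of knockout over control CPM (x axis) for each measured gene of 8 lists (y axis, number of genes in parentheses), with 95% counting intervals, a solid line at 0 and dashed lines at 2-fold. Genes past 2-fold are named: the 3 PEA3 genes, *Spry4*, *Spred3*, *Fgf1*, *Fgfr1* and *Fgf20* to the right and *Dusp5* and *Egr1* to the left.

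The cells were last divided into 12 groups by library, sex and class (*Cck* positive, *Grik1* positive without *Cck*, or neither), and genes with at least 100 UMIs were ranked by how closely their log2 level followed that of *Etv4* or *Etv5*. Across the 6 control groups *Etv4* ranged from 0 to 4.76 CPM, and across the 6 knockout groups from 63.3 to 82.7 CPM. *Etv5* ranged from 2.91 to 20.2 CPM and from 55.2 to 88.1 CPM. The groups of either gene did not overlap between libraries, so a high correlation mostly follows the contrast of the 2 libraries. Among 9441 genes, those most like *Etv4* were *AC160336.1* (Pearson's r 0.992), *9630014M24Rik* (0.990), *Shc3* (0.988), *Camk1d* (0.987) and *Gm5820* (0.975), and *Etv5* was 7th (0.951). The gene most like *Etv5* was *Etv4*, followed by *Camk1d* (0.947), a calcium and calmodulin dependent kinase, *Hsp90aa1* (0.942), a chaperone, *AC160336.1* (0.940) and *9630014M24Rik* (0.932). Of these genes, *9630014M24Rik* and *Gm5820* are neighbours in the genome, as said above. The genes differed widely in size of contrast. *9630014M24Rik* had 3 UMIs in control and 289 in knockout cells, *Shc3* 5 and 98, and *Gm5820* 4 and 115, while *Camk1d* was at 691 and 1257 CPM (ratio 1.82) and *Hsp90aa1* at 528 and 632 CPM (ratio 1.20). *AC160336.1*, at 43.6 and 127 CPM, overlaps 5 other genes or pseudogenes, and its count is uncertain.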

How the data were processed

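Hippocampal cells of P14 mice were sorted and captured with 10x Genomics 3′ v3.1 chemistry. The authors deposited raw UMI counts per gene and barcode for all barcodes, without normalization or cell calling (16336796 control and 6777071 knockout UMIs). The sources differ on the upstream version and build: the submitters' processing notes list Cell Ranger 8.0.1 and mm39, while the methods and the matrix header name other versions and the methods mm10. Use of intronic reads and strand is not given in the sources used here.

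Counts were summed in Python 3.11.15 (numpy 2.4.6, scipy 1.17.1). CPM left out mitochondrially encoded genes and ribosomal protein genes (symbols with the prefix mt-, Mrp, Rpl or Rps), which took 5.44% and 5.84% of the UMIs of the cells, leaving 6601724 and 2765943 UMIs. Poisson, conditional ratio and Clopper-Pearson intervals are exact. A ratio against 0 UMIs is given as its exact lower limit and against a floor of 3 UMIs over the group. Ranks and lists used genes with at least 20 UMIs, and likeness used log2(CPM + 10). No doublet caller was run, and the deep Pcp4 cells were left out in 1 alternative. Cells were thinned without replacement, and the code was tested on simulated data.

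The members and lists were chosen with earlier results of these data known. Named genes are the members, list genes past 2-fold with an interval leaving out 1, up to 4 abundant genes per list, the 5 most like *Etv4* and *Etv5*, and *Reln*, *Trp73* and *Cic*. *Spdef*, *Dusp6*, *Spred1*, *Gja1*, *Aqp4*, *Ier2* and the genes compared by co-detection were added after their values were seen. Positions came from GENCODE M21 by gene symbol. Proteins were not analysed here. Alternatives covered the total, scaling, cell limits, *Trp73*, markers, sex, thinning and class thresholds.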

Additional observations from a re-analysis of the deposited data

Results flagged for a closer look

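PEA3 RNA in droplets without cells stood above the control, outside the cells the comparisons use. In knockout droplets of 20 to 100 UMIs, *Etv4* was at 48.4 CPM, *Etv5* at 51.0 CPM and *Etv1* at 2.63 CPM. The control droplets gave 0.459 CPM, 3.67 CPM and, for *Etv1*, 0 UMIs. The ratio was 105 (18.6 to 4191) for *Etv4* and 13.9 (6.88 to 32.8) for *Etv5*, and *Etv1* was at least 1.22-fold higher by the exact interval, or 1.91-fold against a floor of 3 UMIs. The knockout had 75813 such droplets with a median of 44 UMIs and the control 29040 with a median of 89. Beside *Etv4* and *Etv5*, *Grik1* was at 58.9 CPM in knockout and 23.4 CPM in control droplets, while *Reln* was at 880 and 957 CPM. How free RNA of this kind entered the counts of the cells was not tested.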

How the results depend on the processing

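No paired analysis was possible because each genotype was 1 pooled library. Of 51 alternative values for the 3 ratios over all cells, 50 stayed within the main interval and none turned its direction. *Etv5* in female cells moved to 7.95 from 4.73. Some of these values could hardly move. Leaving out barcodes in both libraries removed no cell, and the marker limit kept 1001 control and all 390 knockout cells. The main interval of *Etv4* (20.6 to 68.8) is also wide, so staying within it is a weak check. For *Etv1*, the interval held 1 under several alternatives, such as at least 4000 UMIs (ratio 2.17, interval 0.903 to 5.15). Thinning changed the shares by construction. With cells thinned to 2000 UMIs, the share of knockout cells was 11.3% for *Etv4*, 12.3% for *Etv5* and 2.05% for both, and with cells of at least 4000 UMIs thinned to 4000 it was 19.3%, 18.2% and 5.79%. Of the class ratios, the value for *Etv4* against the floor of 3 UMIs in *Chst8* or *Alkal2* cells fell from 23.7 to 9.30 with at least 2 UMIs for a positive cell and to 8.85 with classes from thinned cells, since fewer cells remained. *Etv5* in *Grik1*-positive over negative knockout cells was 0.639 (0.324 to 1.14) with at least 2 UMIs. Of the 71 listed genes other than the members, 5 were at least 2-fold higher and 2 lower (2.42% and 1.87% of all genes). These counts were 2 and 1 of 58 with at least 100 UMIs per gene (0.572% and 0.159% of all genes), and 10 and 4 of 84 with no filter, where 10.0% and 4.36% of all genes were past the fold. At 1.5-fold they were 6 and 4 of 71, against 7.503% and 5.56% of all genes. The mean of the CPM of single cells, added after seeing the data, gave 30.2 for *Etv4*, 5.26 for *Etv5* and 2.92 for *Etv1*. Few UMIs limit *Etv1* and the control level of *Etv4*, where single cells decide the class values.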

Other observations

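Cells positive for 1 class alone gave levels of the same order. *Etv4* in the knockout was at 71.5 CPM in 72 cells with *Cck* alone, 99.6 CPM in 43 cells with *Grik1* alone and 36.5 CPM in 51 cells with *Chst8* or *Alkal2* alone. *Etv5* was at 98.0, 69.8 and 73.0 CPM in the same cells. In the control, *Etv5* was at 16.7 CPM in 215, 4.61 CPM in 130 and 27.2 CPM in 145 such cells. Barcodes with at least 2000 UMIs and under 5 *Reln* UMIs numbered 8 among control and 16 among knockout barcodes, and gave 0 and 5 UMIs of *Etv5* and 0 and 1 of *Etv4*. Barcodes of at least 500 and under 2000 UMIs gave 1 and 2 UMIs of *Etv4* and 5 and 1 of *Etv5*.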
